A study of Mus musculus with 4 samples.

Results

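The deep cerebellar nuclei send the output of the cerebellum to the rest of the brain, and most of their long-range projection neurons are glutamatergic. A table of 480 nuclei that the submitters named vglut2 was used to describe 65 of them, called Rorb/Sema3a nuclei here, out of 21494 nuclei in the series. They were chosen by their own counts. Counts were scaled to 10000 per nucleus, log-transformed and converted to z-scores over the 480 nuclei, and the z-scores of Rorb, Sema3a, Sorcs2 and Anp32e were averaged. A member had a mean of at least 0.3 that was higher than its mean for each of 4 other gene sets, led by Maf and Kitl (103 nuclei), Kynu and Igf1 (64), Lmx1a and Pax6 (65), and Zfhx3 and Zfhx4 (37). The remaining 146 nuclei reached 0.3 for no set.

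The nuclei came from micro-dissected tissue of C57BL/6J mice, with no sorting recorded. The Ucn3-Cre mice carried Tg[Ucn3-cre]KF31Gsat/Mmucd, in which urocortin 3 regulatory sequence drives Cre. The vGluT2-Cre mice carried Tg(Slc17a6-icre)1Oki, in which regulatory sequence of the glutamate transporter gene Slc17a6 drives Cre. Every mouse also carried Ai32, a Rosa26 allele of B6.Cg background in which the CAG promoter drives COP4*H134R/EYFP; it makes channelrhodopsin fused to a yellow fluorescent protein after Cre recombination. Ucn3-Cre replicate 1 was a female of 3 months with nuclei from an iodixanol gradient, and replicate 2 a male of 3 months. vGluT2-Cre replicate 1 was a male of 2 months and replicate 2 a female of 2.5 months. The last 3 were prepared on a sucrose cushion. The lines differ in age, so line and age cannot be told apart. The number of animals per library is not given, and p-values measure the spread between these libraries.

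The members numbered 19 and 22 in Ucn3-Cre replicates 1 and 2, and 17 and 7 in vGluT2-Cre replicates 1 and 2. They had a median of 8967 counts and 4027 genes, against 9592 counts and 4033 genes in the other 415 nuclei of the table. Their counts summed to 123087 to 227911 per library. Of 41 cell barcodes shared between pairs of libraries, 0 were in the table. Scrublet gave 3 members a score among the highest of their library.

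The genes of the rule belong to different systems. Rorb encodes an orphan nuclear receptor known from cortical layer and retinal development, and a relative of the cerebellar gene Rora. Sema3a encodes a secreted guidance cue that repels axons through neuropilin and plexin receptors and also binds to perineuronal nets. Sorcs2 encodes a VPS10 receptor that takes part in neurotrophin signalling and protein sorting, and Anp32e a histone chaperone that removes H2A.Z from chromatin. On GRCm38, Rorb (ENSMUSG00000036192) lies on chromosome 19 from 18930605 to 19111196 on the minus strand, and Sema3a (ENSMUSG00000028883) on chromosome 5 from 13125414 to 13602565 on the plus strand. Sorcs2 (ENSMUSG00000029093) lies on chromosome 5 from 36017180 to 36398139 on the minus strand, and Anp32e (ENSMUSG00000015749) on chromosome 3 from 95929246 to 95947390 on the plus strand.

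Because these 4 genes chose the members, their levels are a description and carry no test. Levels are given as CPM, counts per 1000000 of the summed counts of a library's nuclei, in the order Ucn3-Cre replicate 1, Ucn3-Cre replicate 2, vGluT2-Cre replicate 1, vGluT2-Cre replicate 2. Rorb had 45.7, 30.8, 124 and 86.7 CPM in members, against 0.634, 4.45, 1.36 and 2.18 CPM in other nuclei of the table. Sema3a had 265, 268, 227 and 111 CPM in members, against 45.9, 24.6, 64.0 and 47.4 CPM in other nuclei. All libraries were higher in members for both genes, with the smallest gap for Sema3a in vGluT2-Cre replicate 2. Sorcs2 had 252, 91.0, 61.9 and 55.6 CPM in members, against 39.1, 28.7, 30.8 and 43.6 CPM in other nuclei. Anp32e had 12.9, 26.6, 195 and 43.1 CPM in members, against 7.68, 17.2, 6.14 and 5.19 CPM in other nuclei. The high value of Anp32e in vGluT2-Cre replicate 1 came mostly from 1 nucleus, which held 60.9% of all Anp32e counts in members. Single other sets also held Sema3a and Sorcs2. Sema3a averaged 218 ± 73.8 CPM in members and 131 ± 67.0 CPM in Lmx1a/Pax6 nuclei (SD, n = 4). Sorcs2 averaged 115 ± 92.7 CPM in members and 110 ± 141 CPM in Zfhx3/Zfhx4 nuclei. The highest mean in another set was 4.41 CPM for Rorb (Zfhx3/Zfhx4) and 13.9 CPM for Anp32e (Maf/Kitl), against 71.7 and 69.3 CPM in members.

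**Figure D1:**
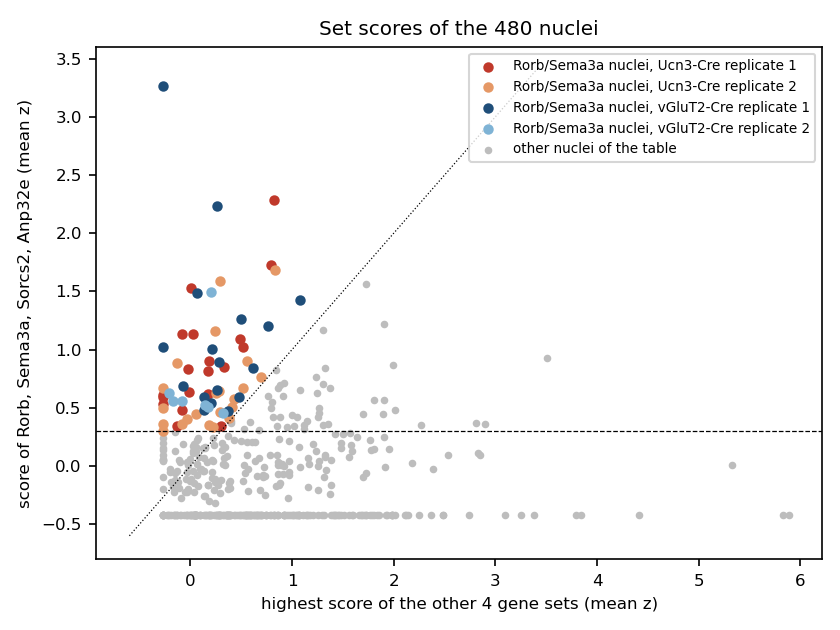
Each point is 1 of the 480 nuclei. The vertical axis is the mean z-score of Rorb, Sema3a, Sorcs2 and Anp32e, the horizontal axis the highest mean z-score among the other 4 gene sets. The dashed line marks 0.3 and the dotted line equal scores. The 65 members lie above both lines, coloured by library, and the lowest of them has a score of 0.304.

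**Figure D2:**
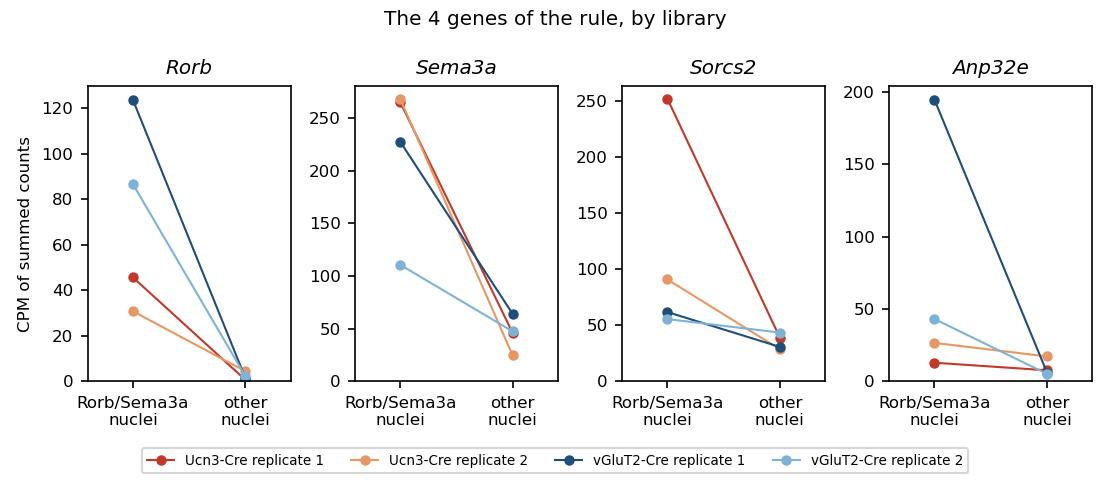
CPM of the 4 genes that chose the nuclei, with members on the left and other nuclei of the table on the right of each panel. Each line is 1 library. Every line falls to the right. Anp32e in vGluT2-Cre replicate 1, at 195 CPM in members, stands apart from its other 3 libraries.

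Rorb and Sema3a were not counted together in most members. Sema3a was counted in 44 members, Sorcs2 in 34, Rorb in 24 and Anp32e in 20, and Rorb and Sema3a together in 13. In all, 19 members had counts of 1 of the 4 genes, 36 of 2 genes, 9 of 3 genes and 1 of all 4. Where a gene was counted, the median was 1.32 counts for Rorb, 2.97 for Sema3a, 1.93 for Sorcs2 and 0.880 for Anp32e. A gene not counted may thus have been missed, and the rule also admits a nucleus with 1 high gene. Joint counts therefore cannot decide whether the 4 genes mark 1 type. When a gene was left out of the rule and the nuclei were chosen on the other 3, its own level was not higher in the chosen nuclei of every library. Rorb, left out, had 28.8, 3.96, 5.38 and 0 CPM in the chosen nuclei, against 5.49, 9.29, 16.9 and 10.7 CPM in the rest of the table. A Rorb sum of 0 counts in 7 nuclei says only that it was not detected at that depth. Sema3a, left out, had 193, 36.2, 168 and 60.2 CPM in the chosen nuclei, against 66.6, 64.5, 73.2 and 52.1 CPM in the rest. Sema3a was thus higher in 3 of 4 libraries and Rorb in 1 of 4. Sorcs2, left out, had 110, 33.7, 40.2 and 0 CPM in the chosen nuclei, against 89.2, 38.9, 33.4 and 49.4 CPM in the rest. Anp32e, left out, had 10.3, 14.9, 22.9 and 5.51 CPM in the chosen nuclei, against 8.48, 19.5, 28.8 and 9.02 CPM in the rest. Sorcs2 was higher in 2 of 4 libraries and Anp32e in 1 of 4. The nuclei are therefore called by the genes that lead their rule and given no cell type name of their own.

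The scores for the other sets varied among members. The next highest set was Lmx1a/Pax6 in 30 members, Zfhx3/Zfhx4 in 19, Kynu/Igf1 in 9 and Maf/Kitl in 7, and 19 members also reached 0.3 for another set. In 53 members the score was at least 0.2 above that of the next set. A further 47 nuclei reached 0.3 for the Rorb/Sema3a set but scored higher on another. The 3 members nearest to the threshold had scores of 0.304, 0.338 and 0.343, and the 3 nuclei nearest to it from below had 0.289, 0.242 and 0.237. After every nucleus was thinned to 2000 counts, the rule chose 73 nuclei, of which 38 were among the 65.

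Rorb was also read outside the table. The nuclei outside the table had 319 to 368 CPM of Rorb in the 4 libraries, above the level in members of each library. Rorb was counted there in 23.0 to 25.7% of nuclei with median depths of 1715 to 3169 counts, and in 36.9% of members. Sema3a had 3.36 to 7.79 CPM there, below the level in members of each library. Astrocyte markers were counted in members too: their summed level was 25.9 to 189 CPM in members and 24.5 to 58.2 CPM in other nuclei, and none of the 8 markers was at 0 in members. The markers did not move together in the share of nuclei with a count. Aqp4, the astrocyte water channel, had a count in 20.0% of members and 8.92% of other nuclei, and Slc1a3, Gfap and S1pr1 were also counted more often in members. Slc1a2 went the other way (12.3% of members and 19.0% of other nuclei), as did Gjb6 and Aldh1l1, and Gja1 was near equal (9.23 and 9.16%). By level pooled over libraries, Slc1a2 (31.7 and 12.6 CPM), Gja1 (15.3 and 6.08 CPM) and Aqp4 (14.7 and 4.83 CPM) were higher in members. Gfap and S1pr1 were higher by level as well. Slc1a3 (5.14 and 5.36 CPM), Aldh1l1 (1.18 and 1.24 CPM) and Gjb6 (0.418 and 1.44 CPM) were lower. The 189 CPM were in vGluT2-Cre replicate 1, where 3 members held at least 5 astrocyte marker counts, and each also held a count of Rorb. Without them Rorb there was 42.8 CPM. Oligodendrocyte markers summed to 139 to 603 CPM in members and 115 to 303 CPM in other nuclei, and the 603 CPM were in the 7 members of vGluT2-Cre replicate 2, against 176 CPM in its other nuclei. The markers of oligodendrocyte precursors summed to 11.4 to 145 CPM in members and 14.4 to 23.8 CPM in other nuclei. Of the 65 members, 40 held no precursor marker count, and 1 member held 20.1, the only member with at least 5. The part of astrocyte RNA in the Rorb counts of the other members was not tested.

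The members carried the glutamatergic gene that the table is named for. Slc17a6, the vesicular glutamate transporter of these neurons, was counted in 52 of 65 members (80.0%) and 341 of the other 415 nuclei (82.2%). Scaled by TMM (the trimmed mean of M-values, an adjustment for composition used for all levels from here on), it had 157, 282, 279.8 and 384 CPM in members and 185, 196, 249.9 and 269 CPM in other nuclei, and did not pass the test (log2 fold change 0.28, SE 0.15, edgeR adjusted p = 0.663). Genes of inhibitory transmission were too low to test. Gad1 and Gad2, which make GABA, were counted in 7 and 10 members (15.2 and 21.8 CPM, against 13.1 and 20.5 CPM in other nuclei), and the glycine transporter Slc6a5 and the vesicular inhibitory transporter Slc32a1 in 2 members each (5.34 and 2.37 CPM, against 20.2 and 16.3 CPM). Summed over the 7 inhibitory markers, the level was 88.9 to 136 CPM in members and 93.2 to 136 CPM in other nuclei.

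Genes outside the 22 rule genes were then compared between members and the other nuclei of the same library. Counts were summed per library and group and tested with edgeR's quasi-likelihood test with the library as a block, so each library served as its own control. Of 6716 genes tested, 61 were higher and 61 lower in members at an adjusted p under 0.05, which is 0.908% in each direction and 1.82% in all. The values of members and other nuclei did not overlap over the 4 libraries for 298 genes, or 4.44%. Both groups were drawn from the same counts by a score, so these p-values are too small. The count also depends on the test: DESeq2 called 41 genes and limma on mean levels of nuclei 17.

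**Figure D3:**
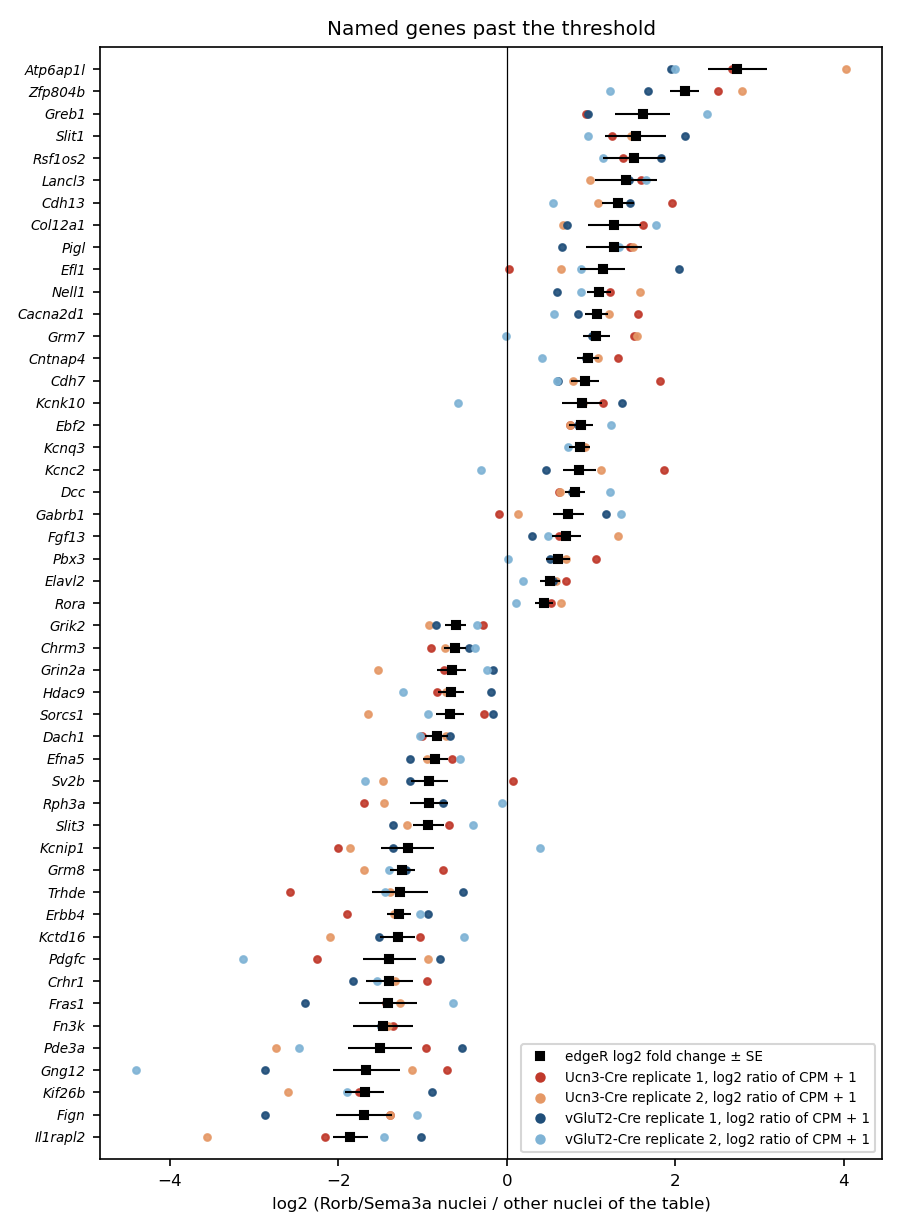
Genes named by the rule for this comparison that passed the threshold. Black squares are the edgeR log2 fold change of members over other nuclei with its SE, and coloured points the log2 ratio of CPM + 1 in each library. Zfp804b and Atp6ap1l lie farthest to the right and Il1rapl2 farthest to the left. For Kcnk10, Kcnc2, Gabrb1, Sv2b, Kcnip1 and Grm7 1 library lies on the other side of 0.

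A few transcriptional regulators differed between members and other nuclei, where 1.82% of all genes tested passed. Of 36 tested genes of a list of transcription factors of the cerebellar nuclei and brain, 3 were higher, 1 was lower and 32 did not pass (median log2 fold change 0.04, against 0.01 over all genes). Zfp804b, a zinc finger protein gene, had 1866, 1113, 709.8 and 479 CPM in members, against 328, 160.0, 221 and 205 CPM in other nuclei. Every library's members lay above every library's other nuclei, and the gene was counted in 48 of 65 members (log2 fold change 2.11, SE 0.17, adjusted p = 1.43e-08). In the comparisons by set given below, Zfp804b passed as higher against Maf/Kitl and Kynu/Igf1 nuclei but not against Lmx1a/Pax6 nuclei. Ebf2, an early B-cell factor of neuronal differentiation, averaged 327 ± 141 CPM in members and 178 ± 89.7 CPM in other nuclei (SD, n = 4; log2 fold change 0.88, edgeR adjusted p = 0.000634). The mean of Ebf2 in Lmx1a/Pax6 nuclei, given below, was not under that of members. Pbx3, a homeodomain cofactor, was higher by 0.60 and Dach1, a nuclear cofactor of the retinal determination network, lower by -0.83 on the log2 scale (edgeR adjusted p = 0.0235 and 0.000524). Pbx3 passed in 11 of 22 alternative settings and Dach1 in 18. Of 17 nuclear receptor and circadian genes, Rora alone passed. It had 2237, 2144, 1808 and 1543 CPM in members, against 1554, 1367, 1335 and 1431 CPM in other nuclei. Members were higher within each library, although the lowest member value lay under the highest value of other nuclei (log2 fold change 0.44, SE 0.10, adjusted p = 0.0239). Rora passed in 11 of 22 alternative settings. For both Pbx3 and Rora, DESeq2, limma and the comparison with nuclei of the other sets alone were among those where they did not pass.

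Adhesion genes moved both ways. Of 71 tested cadherin and synaptic adhesion genes, 5 were higher, 6 lower and 60 did not pass (median 0.03). Cdh13, which encodes the membrane-anchored T-cadherin, had 352, 238, 228 and 131 CPM in members, against 89.4, 112, 82.2 and 89.4 CPM in other nuclei (log2 fold change 1.32, SE 0.19, edgeR adjusted p = 6.49e-05). Cntnap4, a neurexin-related gene, averaged 611 ± 139 CPM in members and 312 ± 22.3 CPM in other nuclei. Cdh7, a classical cadherin, averaged 352 ± 63.1 and 183 ± 40.8 CPM (SD, n = 4). Groups did not overlap for any of these 3. Il1rapl2, an interleukin-1 receptor relative found at synapses, was the gene with the lowest fold change among those named. It had 219.9, 53.5, 368 and 209 CPM in members, against 982, 639, 745 and 578 CPM in other nuclei (log2 fold change -1.86, SE 0.21, edgeR adjusted p = 4.29e-06), and it was counted in 24 members. In the comparisons by set given below, Il1rapl2 passed as lower against Maf/Kitl and Kynu/Igf1 nuclei but not against Lmx1a/Pax6 nuclei.

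Nell1, which encodes a secreted protein with EGF-like repeats, had 735, 676, 430.0 and 462 CPM in members, against 314, 226, 283 and 250.5 CPM in other nuclei (log2 fold change 1.09, SE 0.14, edgeR adjusted p = 2.93e-05). All members' values were above all values of other nuclei. Of 25 tested genes of the semaphorin system, to which Sema3a belongs, 0 passed (13 had a fold change above 0, median 0.01). Its receptor gene Nrp1 averaged 54.8 ± 14.4 CPM in members and 54.8 ± 9.19 CPM in other nuclei. The log2 fold change was -0.44 for Plxna2 (SE 0.23) and -0.14 for Plxna4 (SE 0.13), and Plxna1 and Plxna3, too low to test, were counted in 14 and 7 members. Of 24 other guidance genes, 3 were higher and 3 lower (median 0.15). Among the Slit ligands of Robo receptors, Slit1 had 44.0, 38.9, 46.6 and 43.6 CPM in members, against 17.9, 13.3, 10.0 and 21.9 CPM in other nuclei (log2 fold change 1.53, SE 0.36, edgeR adjusted p = 0.0218). Slit1 passed in 8 of the 15 alternatives that tested it, DESeq2 and limma not among them. Slit3 went the other way, at 119, 117, 72.5 and 166 CPM in members and 193, 268, 187 and 219.9 CPM in other nuclei (log2 fold change -0.93, SE 0.19). The netrin receptor gene Dcc was higher by 0.81 (SE 0.12) and the ephrin gene Efna5 lower by -0.85 (SE 0.15) on the log2 scale, with no overlap between groups.

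Erbb4, the neuregulin receptor, was among the firmest differences. It had 270.2, 272, 518 and 331 CPM in members, against 1010, 688, 995 and 676 CPM in other nuclei (log2 fold change -1.28, SE 0.14, edgeR adjusted p = 3.09e-06). Every library's members were below every library's other nuclei. Kif26b, a kinesin family gene, had 69.1, 34.0, 98.4 and 52.3 CPM in members, against 236, 211, 183 and 198 CPM in other nuclei (log2 fold change -1.69, SE 0.23). Atp6ap1l, related to an accessory subunit of the vacuolar proton pump, had 94.2, 97.3, 46.6 and 69.7 CPM in members, against 13.9, 5.00, 11.4 and 16.6 CPM in other nuclei. It had the highest fold change among the genes named (log2 fold change 2.74, SE 0.35, edgeR adjusted p = 2.44e-05) and a count in 28 members. Like Zfp804b, it did not pass as higher against Lmx1a/Pax6 nuclei alone. Other genes at the high end were Greb1, the long non-coding Rsf1os2, Lancl3, the collagen gene Col12a1, the GPI anchor enzyme Pigl and the ribosome maturation factor Efl1, with log2 fold changes of 1.14 to 1.61. Rsf1os2 is named as lying opposite Rsf1, and reads of the pair may not be separable, since strand use is not given in the sources used here. At the low end were the microtubule-severing gene Fign, the G protein subunit Gng12, the phosphodiesterase Pde3a, the fructosamine kinase Fn3k, the matrix gene Fras1, the growth factor Pdgfc and the peptidase Trhde, with log2 fold changes of -1.69 to -1.27. Gng12 turned to a positive fold change when members were chosen without Sema3a, Sorcs2 or Anp32e or with a score of at least 0.2.

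A few channel genes differed in members, and most of those tested did not pass. Over all genes tested, 0.908% were higher and 0.908% lower. Of 35 tested potassium and HCN channel genes, 5 were higher, 2 lower and 28 did not pass (median -0.03, against 0.01 over all genes). Kcnq3, which contributes to the M-current, had 578, 447, 534 and 409.6 CPM in members, against 308, 234, 291 and 247 CPM in other nuclei (log2 fold change 0.87, SE 0.13, edgeR adjusted p = 9.96e-05). Kcnc2, a Kv3 channel of fast-spiking neurons, had 817, 554, 409 and 262 CPM in members, against 223, 255, 296 and 324 CPM in other nuclei (log2 fold change 0.86, SE 0.20, edgeR adjusted p = 0.0161). Members were higher in 3 of 4 libraries and lower in vGluT2-Cre replicate 2, and Kcnc2 passed in 13 of 22 alternatives. The leak channel gene Kcnk10 was likewise higher in 3 of 4 libraries (0.89, SE 0.24), and Kcnip1, which modulates A-type channels, lower in 3 of 4 (-1.18, SE 0.31). Kcnk10 passed in 7 of 22 alternatives and Kcnip1 in 4, DESeq2 and limma not among them. Of 29 sodium and calcium channel genes, 2 were higher, 0 lower and 27 did not pass (median -0.00). Cacna2d1, an auxiliary calcium channel subunit that binds gabapentin, had 936, 681, 679 and 453 CPM in members, against 316, 293, 377 and 307 CPM in other nuclei (log2 fold change 1.07, SE 0.14, edgeR adjusted p = 2.44e-05). Members lay above other nuclei in every library. Fgf13, which binds sodium channels, was higher by 0.71 (SE 0.17) and passed in 9 of 22 alternatives.

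Among glutamate receptor genes, 1 of 26 was higher and 3 were lower (median -0.06), and the 2 presynaptic group III receptors Grm7 and Grm8 moved in opposite directions. Grm7 had 898, 690.5, 772 and 427 CPM in members, against 316, 236, 381 and 428 CPM in other nuclei (log2 fold change 1.06, SE 0.17, edgeR adjusted p = 0.000290). It was higher in 3 of 4 libraries, with near equal values in vGluT2-Cre replicate 2. Grm8 had 308, 141, 249 and 227 CPM in members, against 521, 458, 569.9 and 601 CPM in other nuclei (log2 fold change -1.24, SE 0.15, edgeR adjusted p = 1.24e-05). The kainate receptor subunit Grik2 was lower by -0.61 (SE 0.12) and the NMDA receptor subunit Grin2a by -0.65 (SE 0.17), each in all 4 libraries. Grik2 passed in 17 of 22 alternatives, and Grin2a in 8, DESeq2 and limma not among them. Of 18 GABA and glycine receptor genes, Gabrb1 was higher (0.73, SE 0.19) in 3 of 4 libraries, and it passed in 7 of 22 alternatives. Kctd16, an auxiliary subunit of GABA-B receptors, had 119, 43.8, 93.3 and 122 CPM in members, against 244, 190.0, 268 and 174 CPM in other nuclei (log2 fold change -1.30, SE 0.21, edgeR adjusted p = 0.000411).

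Of 13 tested receptors for appetite, peptide and amine signals, 0 were higher and 2 were lower (median -0.34, with 3 above 0). Crhr1, the receptor for corticotropin-releasing hormone and urocortin, had 44.0, 38.9, 20.7 and 26.1 CPM in members, against 85.5, 99.2, 76.2 and 78.0 CPM in other nuclei (log2 fold change -1.39, SE 0.28, edgeR adjusted p = 0.00593). The groups did not overlap, and 19 members held a count. In the comparisons by set given below, Crhr1 passed as lower against Maf/Kitl nuclei. It did not pass against Kynu/Igf1 nuclei, where Htr2c alone of 11 tested receptors was lower and 0 were higher. Crhr1 did not pass with DESeq2, with limma, without Ucn3-Cre replicate 2, after thinning, or with members chosen without Sema3a or Sorcs2. The muscarinic receptor Chrm3 averaged 388 ± 62.7 CPM in members and 591 ± 42.9 CPM in other nuclei (SD, n = 4; log2 fold change -0.61, edgeR adjusted p = 0.00828). Chrm3 passed in 13 of 22 alternatives, DESeq2 and limma not among them. The serotonin receptor Htr2c had 371, 302, 414 and 723 CPM in members, against 669.8, 495, 657 and 465 CPM in other nuclei, and did not pass (log2 fold change -0.39, SE 0.17, edgeR adjusted p = 0.443). It was lower in 3 of 4 libraries and higher in vGluT2-Cre replicate 2. It passed as lower in 3 of 22 alternatives: without that library (-0.75), without nuclei holding glial marker counts (-0.61) and with members chosen without Anp32e (-0.76). The leptin receptor gene Lepr, too low to test, was counted in 5 members (7.69%) and 28 other nuclei (6.75%).

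Other lists held few calls. Of 9 tested VPS10 and neurotrophin genes, 1 was lower, Sorcs1, a relative of Sorcs2 (361 ± 173 CPM in members and 553 ± 42.5 CPM in other nuclei, SD, n = 4, log2 fold change -0.67). It did not pass in 10 of 22 alternatives, DESeq2 and limma among them, and its fold change was 0.054 with members chosen without Sema3a. Its relative Sorcs3 did not pass (-0.81, SE 0.32), except against nuclei of the 4 other sets alone (-1.34). The vesicle genes Rph3a and Sv2b were lower, 2 of 36 (-0.92 for both), as was the histone deacetylase Hdac9, 1 of 19 (-0.66). The neuronal RNA-binding gene Elavl2 was higher, 1 of 6 general neuronal markers (0.52). None of 7 transmitter identity genes, 10 neuropeptide and granin genes, 30 neurofilament and cytoskeleton genes, 27 calcium signalling genes or 5 perineuronal net genes passed in edgeR's test, and 1 gene each of the immediate early and mitochondrial lists was high enough to be tested. Mitochondrial transcripts summed to 0, 87.6, 163 and 1118 CPM in members, against 0, 208, 140.0 and 247 CPM in other nuclei. Members of vGluT2-Cre replicate 2 thus stood apart, as they did for oligodendrocyte markers. Their part in the gene differences of that library was not tested, and without the library 41 of the 48 named genes tested passed.

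Of the 49 named genes that passed, Zfp804b, Nell1 and Erbb4 passed in each of the 22 alternative settings. In contrast, 9 of 45 tested passed after thinning to 2000 counts, 6 of 49 with limma, 10 of 45 with members chosen without Sema3a, and 19 of 48 without Ucn3-Cre replicate 2.

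The members were next set beside the 3 largest other sets, each with edgeR over 5810 genes. These comparisons share the members. Against Maf/Kitl nuclei 241 genes (4.15%) passed, 134 higher and 107 lower in members. Against Kynu/Igf1 nuclei 350 genes (6.02%) passed, 187 higher and 163 lower. Against Lmx1a/Pax6 nuclei 74 genes (1.27%) passed, 43 higher and 31 lower. After thinning to 2000 counts these counts were 89, 124 and 36.

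**Figure D4:**
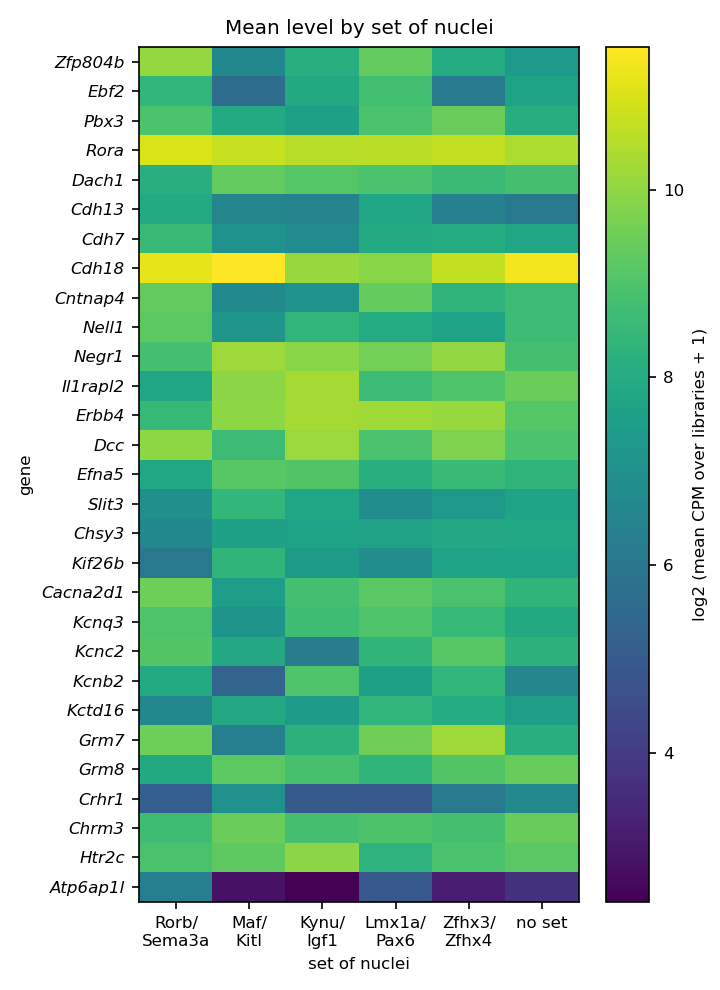
Colour gives log2 of the mean CPM over libraries plus 1, for selected genes named in the text (rows) in the 6 sets of nuclei (columns), members in the first column. Zfp804b and Atp6ap1l are brightest in members and next brightest in Lmx1a/Pax6 nuclei, while Erbb4, Dach1 and Chsy3 are darkest in members.

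Several genes that were higher in members than in Maf/Kitl nuclei had like mean levels in Lmx1a/Pax6 nuclei. Grm7 averaged 731 ± 205 CPM in members, 79.4 ± 15.3 CPM in Maf/Kitl nuclei and 746 ± 170 CPM in Lmx1a/Pax6 nuclei (SD, n = 4). Its log2 fold change in members was 3.14 (SE 0.31, edgeR adjusted p = 1.25e-09) against Maf/Kitl nuclei and -0.01 (SE 0.26, edgeR adjusted p = 0.999) against Lmx1a/Pax6 nuclei. Ebf2 averaged 343 ± 147, 49.5 ± 64.9 and 429.6 ± 64.7 CPM, and Cntnap4 641 ± 142, 106 ± 15.9 and 659 ± 224 CPM, in the same order. Against Maf/Kitl nuclei, Zfp804b (3.38), Cntnap4 (2.58), the potassium channel Kcnb2 (2.56) and the secreted Fam19a2 (2.42) were higher, as were Atp6ap1l, Col12a1, Ptprk, Trdn and Col11a1 (2.70 to 3.66). Lower were Crhr1 (34.1 ± 11.2 CPM in members and 129 ± 24.7 CPM in Maf/Kitl nuclei, -1.95), Kif26b (-2.24) and the transcription factors Onecut2 (-2.22), Nr2f2 (-1.82) and Lmo3 (-1.65). Fign, Pdgfc, Il1rapl2, Plekhg1, Pdzrn3, Fras1 and Trhde were lower as well (-2.52 to -1.61).

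Against Kynu/Igf1 nuclei, the T-type calcium channel gene Cacna1g stood out. It averaged 3.28 ± 6.56 CPM in members, with a count in 1 nucleus, and 73.6 ± 7.91 CPM in Kynu/Igf1 nuclei (SD, n = 4; log2 fold change -4.40, SE 0.79, edgeR adjusted p = 0.000178). The calcium pump Atp2b4 was lower (-3.05), as were Fstl5 (-2.83), the vesicle protein Synpr (-2.53), the ubiquitin ligase gene March1 (-2.52), Il1rapl2 (-2.49), Sorcs3 (-2.43) and Kcnip1 (-2.28). The other lower genes named were Fxyd6, Zfp57, Adamtsl1 and Fam126a (-2.98 to -2.48). Higher in members were Kcnc2 (535 ± 246 CPM in members and 77.1 ± 69.5 CPM in Kynu/Igf1 nuclei, 2.54), the actin cross-linker Actn2 (3.30), Ccbe1 (2.72), Mpped2 (2.80), Lrmda (2.91) and Aff1 (2.73). Tmc1, Clca4a and Lncenc1 (3.56 to 4.42) rested on few nuclei, since 1 member held 68.3, 50.7 and 38.6% of their counts. Tnfrsf23, Atp6ap1l and the D-aspartate oxidase gene Ddo were also higher (2.55 to 3.88).

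The Lmx1a/Pax6 nuclei gave the fewest genes past the threshold. Mean levels over the 5810 genes did not set them closer to members than Maf/Kitl nuclei (Pearson correlation 0.925 for both, Spearman 0.897 and 0.909). The sets also differed in depth, with 1177856 summed counts in Maf/Kitl, 423629 in Kynu/Igf1 and 598083 in Lmx1a/Pax6 nuclei. The part of depth in the numbers of genes was not tested. Cdh18, a cadherin, averaged 2328 ± 303 CPM in members and 965 ± 145 CPM in Lmx1a/Pax6 nuclei (SD, n = 4; log2 fold change 1.26, SE 0.19, edgeR adjusted p = 4.30e-05). The latrophilin gene Adgrl2 averaged 180.0 ± 81.1 and 35.4 ± 17.3 CPM (2.32, SE 0.38), and the vesicle protein gene Sv2c was higher by 2.10. Of 24 semaphorin system genes tested, 0 were higher and 2 lower (median -0.13, against 0.01 over all genes), the plexin gene Plxna2 (-1.19) and the semaphorin gene Sema5a (-1.44). Of 23 other guidance genes, 4 were higher and 1, the netrin receptor gene Unc5c, was lower (median 0.10). The 4 were Dcc, Epha4, Epha7 and Ntng1 (0.70 to 1.15), and 18 did not pass. Spp1, which encodes osteopontin and marks large projection neurons, was higher (173 ± 37.1 and 77.2 ± 59.8 CPM, 1.15, SE 0.31), and so was the neurofilament gene Nefm (0.90, SE 0.24). The direction of Spp1 depended on the set compared. Against Maf/Kitl nuclei it was lower in members, the only 1 of 30 tested neurofilament and cytoskeleton genes to pass. Against Kynu/Igf1 nuclei 4 of 30 were higher, Spp1 and Nefm among them, and 0 lower. Dcc, Epha4, Epha7, Ntng1, Unc5c, Spp1 and Nefm were chosen here after their values were seen. Lrmda, Ptprk, Col16a1, Mcrip1, Cntn3, Inpp5k and Nell1 were higher by 1.19 to 2.13, and Tmc1 by 3.90 with 5 members. Lower were the tetraspanin gene Tspan18 (-3.92, but 0.87, 0.86 and 0.36 with members chosen without Rorb, Sorcs2 and Anp32e), the laminin gene Lama1 (-2.85), Vat1l, Slc16a11, Kctd16, Erbb4, Fam13c, Trank1 and Pmepa1 (-1.88 to -1.15), and Kcnip1 (49.5 ± 35.2 CPM in members and 190.5 ± 91.4 CPM in Lmx1a/Pax6 nuclei). Of the 24 genes named by the rule in this comparison, 3 passed in each of the 20 alternatives. Inpp5k passed in 7 of them, Fam13c in 6, and Ptprk in 10, with -0.13 after thinning.

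Against each of the 3 sets, 5 genes were higher and 4 were lower in members. Zfp804b, Atp6ap1l and Cacna2d1 were not among the 5, and Crhr1, Il1rapl2, Grm8, Grik2 and Efna5 were not among the 4. Cacna2d1 passed as higher against Maf/Kitl and Kynu/Igf1 nuclei but not against Lmx1a/Pax6 nuclei. Likewise, Il1rapl2, Grm8, Grik2 and Efna5 passed as lower against Maf/Kitl and Kynu/Igf1 nuclei but not against Lmx1a/Pax6 nuclei. Lower were Erbb4, Negr1, which encodes a cell adhesion protein, Dach1 and Chsy3, a chondroitin synthase gene. Erbb4 averaged 366 ± 122 CPM in members, 1007 ± 127 CPM in Maf/Kitl nuclei, 1253 ± 382 CPM in Kynu/Igf1 nuclei and 1195 ± 410.3 CPM in Lmx1a/Pax6 nuclei (SD, n = 4). Chsy3 averaged 100.2 ± 27.5, 196 ± 40.2, 204 ± 59.1 and 201 ± 42.3 CPM in the same order. Higher was Nell1, at 605 ± 158, 143 ± 59.9, 341 ± 105 and 260.0 ± 48.5 CPM, and the difference held in every library. The phosphatase gene Ptpn4, Inpp5k, Ror2 and Tmc1 also passed as higher in the fit, though none of them was higher in every library against all 3 sets. Ror2 had 0 CPM in members of Ucn3-Cre replicate 1 and 5.10 CPM in those of replicate 2, against 255 and 481 CPM in members of vGluT2-Cre replicates 1 and 2. Ror2 and Tmc1 were counted in 6 and 5 members.

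The members were then split by which rule gene had been counted. Of 33 leading genes, pooled levels in members lay on the same side of the other nuclei for all 33 in members with Rorb and in the 41 members without it. The same held for 33 genes with Sema3a and 33 without it. It held for 32 genes with Sorcs2 and 33 without, and for 33 with Anp32e and 32 without. The genes were chosen for these sides, so the counts only describe. Sizes varied: Zfp804b had 1388 CPM in members with Sorcs2 and 581 CPM in members without it. Grm8 had 116 CPM in members with Sema3a and 433 CPM in members without it, against 514 CPM in other nuclei. Crhr1 had 16.04 CPM in members with Sema3a and 64.3 CPM in members without it, against 80.0 CPM in other nuclei. These levels pool nuclei over the libraries and carry no spread between them. Whether they differ with the rule gene counted was not tested.

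The line comparison asks whether members differ between the Cre lines. Members made up 21.6% (19 of 88, 95% exact Clopper-Pearson interval 13.5 to 31.6%) and 14.8% (22 of 149, 9.49 to 21.5%) of the table's nuclei in Ucn3-Cre replicates 1 and 2. They made up 10.6% (17 of 161, 6.27 to 16.4%) and 8.54% (7 of 82, 3.50 to 16.8%) in vGluT2-Cre replicates 1 and 2. Intervals cover counting error only. Both Ucn3-Cre values were above both vGluT2-Cre values. The mean was 18.2% ± 4.83 in Ucn3-Cre and 9.55% ± 1.43 in vGluT2-Cre (SD, n = 2 each), a difference of 8.63 percentage points. The two-sided exact permutation test gave p = 0.3333, the smallest this design allows. Between the sexes the mean was 15.1% ± 9.23 in females and 12.7% ± 2.97 in males, a difference of 2.40 points within the spread of the libraries (exact permutation p = 1; -4.13 points without Ucn3-Cre replicate 1). The order of the lines depended on the cut-off. With a score of at least 0.5, Ucn3-Cre replicate 2 had 8.05% and vGluT2-Cre replicate 1 had 9.32% (exact permutation p = 0.667 between lines). With a margin of at least 0.2 over the next set, these libraries had 9.40 and 9.32%.

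**Figure D5:**
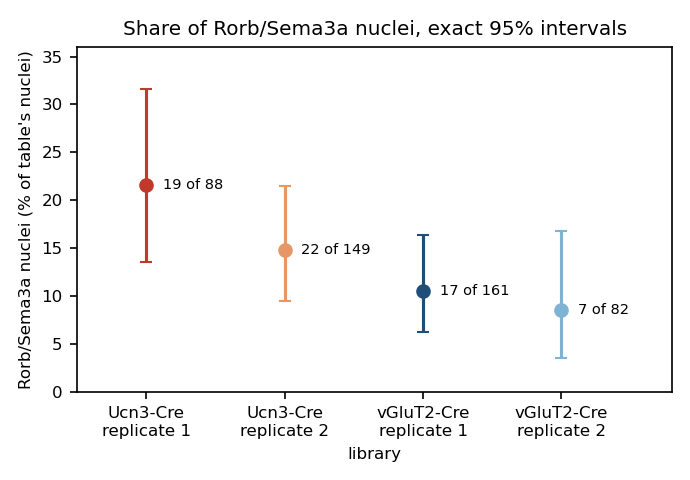
Members as a percentage of the table's nuclei in each library, with exact 95% intervals. Both Ucn3-Cre libraries, at 21.6 and 14.8%, lie above both vGluT2-Cre libraries, at 10.6 and 8.54%, and all intervals overlap.

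The number of genes of members that passed edgeR's test between the lines depended on single libraries. Of 4308 genes tested, 0 were higher and 2 lower in Ucn3-Cre members (0.0464%), and 248 had an unadjusted p under 0.05. Leaving out replicate 1 or 2 of Ucn3-Cre gave 0 or 22 genes, leaving out replicate 1 or 2 of vGluT2-Cre gave 62 or 45, and using no filter on low counts gave 43. Ror2, a receptor for Wnt ligands, had 0 and 5.30 CPM in Ucn3-Cre members, against 261 and 496 CPM in vGluT2-Cre members (log2 fold change -6.62, edgeR adjusted p = 0.00348). Tmc1, known as a subunit of the hair cell transduction channel, had 13.4 and 21.2 CPM in Ucn3-Cre members, against 367 and 239 CPM in vGluT2-Cre members (log2 fold change -4.06, edgeR adjusted p = 0.00492). Both rested on few nuclei. Ror2 was counted in 0 and 1 Ucn3-Cre members and in 2 and 3 vGluT2-Cre members, Tmc1 in 1 and 2 and in 1 and 1. Without Ucn3-Cre replicate 1 neither passed. The reporter gene listed as YFP was counted in 1 of 19 and 3 of 22 Ucn3-Cre members and in 7 of 17 and 5 of 7 vGluT2-Cre members, and its difference between members and other nuclei did not pass edgeR's test (log2 fold change 0.17, SE 0.33, adjusted p = 0.9502).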

How the data were processed

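Droplet libraries of single nuclei were made with Chromium chemistry, as the labels say. The submitters' processing notes list Cell Ranger 3.1.0, Seurat 3.2 and the build mm10, with no role given. The deposited values are expected counts per gene and nucleus, not whole and not scaled to depth. The step that made them so is not given in the sources used here. Totals were 9096357 to 19125488 counts per library, and 1730 to 3206 for the median nucleus.

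Members and gene lists were chosen with earlier results of these data known. Counts were summed per library and set (at least 5 nuclei), rounded, filtered with filterByExpr, TMM-scaled and tested with edgeR 4.0.16 (quasi-likelihood, library as block, Benjamini-Hochberg over all genes, threshold 0.05). The 22 rule genes stayed in each fit but are not counted. The code was tested on simulated data. Named genes were the 12 highest and 12 lowest log2 fold changes that passed, had 1 direction in every library and at least 20 CPM, up to 4 per list, and a fixed set. Gene models, Xist, Tsix, Y-linked and mitochondrial genes were left out, and some genes that the rule names are not reported here. Alternatives used DESeq2 1.42.0, limma 3.58.1, other filters, cut-offs and libraries. Doublets were not removed in the main result. The highest Scrublet scores (scanpy 1.11.5) of each library, in a share that grew with its number of nuclei, were removed in an alternative. The Zfhx3/Zfhx4 set, with 1 nucleus in Ucn3-Cre replicate 1, was not tested. Positions are from GENCODE on GRCm38, the build of mm10.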

Additional observations from a re-analysis of the deposited data

Results flagged for a closer look

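In a test added after the data were seen, for 9 of 6716 genes (0.134%) the difference between members and other nuclei differed between the Cre lines in edgeR's interaction test at an adjusted p under 0.05, and 3 of them are named above. For Zfp804b the difference was larger in Ucn3-Cre by 1.16 on the log2 scale (SE 0.25, edgeR adjusted p = 0.0313). Members were higher in all 4 libraries, with a mean log2 ratio of 2.65 in Ucn3-Cre and 1.45 in vGluT2-Cre. For Kcnc2 the difference was larger in Ucn3-Cre by 1.32 (SE 0.29, edgeR adjusted p = 0.0440), with mean log2 ratios of 1.49 in Ucn3-Cre and 0.08 in vGluT2-Cre. For Ror2 the interaction was -6.12 (SE 0.85, edgeR adjusted p = 0.000172), with mean log2 ratios of -3.85 in Ucn3-Cre and 2.61 in vGluT2-Cre, from counts in 6 members. Age differs with line, so the lines and their ages cannot be told apart.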

How the results depend on the processing

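Against other nuclei, where 122 genes passed, 41 passed with DESeq2, 195 with no filter on low counts, 22 after thinning to 2000 counts, 25 with no library block and 17 with limma on mean CPM over nuclei. With members chosen without Rorb, Sema3a or Sorcs2, alternatives added after seeing the data, 74, 19 and 32 passed. Leaving out 1 library gave 42 (without Ucn3-Cre replicate 2) to 151 genes, with 81 and 79 without Ucn3-Cre replicate 1 and vGluT2-Cre replicate 1. Against Maf/Kitl nuclei the 241 genes became 89 after thinning, 160 with members chosen without Sema3a, 138 with no library block, and 152 (without vGluT2-Cre replicate 1) to 217 with 1 library left out. Against Kynu/Igf1 nuclei the 350 became 124 after thinning, 224 with no library block, and 200 (without Ucn3-Cre replicate 2; 223 without replicate 1) to 310. Against Lmx1a/Pax6 nuclei the 74 became 161 with no filter, 36 after thinning, 41 and 46 with members chosen without Rorb or Sema3a, 28 with no library block, and 35 (without Ucn3-Cre replicate 1; 49 without its replicate 2 and 45 without vGluT2-Cre replicate 1) to 74. Between the lines the 2 genes became 43 with no filter, 1 with a score of at least 0.5, 1 over genes counted in every library, 31 without nuclei holding glial marker counts, 0 and 10 with members chosen without Rorb or Sema3a, and 0 (without Ucn3-Cre replicate 1) to 62 (without vGluT2-Cre replicate 1), with 22 and 45 without the second replicates of Ucn3-Cre and vGluT2-Cre. The cause of these shifts was not tested. The replicate numbers are only labels: deviations of same-numbered libraries correlated at 0.0253 over 4312 genes, and a replicate block called 14 genes (2 higher, 12 lower). With that block the share difference between lines was 8.63 points (exact permutation p = 0.5), and leaving out 1 library gave 5.22 to 12.04 points. The share difference between sexes was -1.49 points with members chosen without Sorcs2, and -4.13 (without Ucn3-Cre replicate 1) to 8.93 points with 1 library left out. Single genes that turned sign were Gng12 (0.51 with a score of at least 0.2, 0.69, 0.68 and 0.55 with members chosen without Sema3a, Sorcs2 and Anp32e), Sorcs1 (0.054 without Sema3a), Ptprk against Lmx1a/Pax6 nuclei (-0.13 after thinning) and Tspan18 against them (0.87, 0.86 and 0.36 without Rorb, Sorcs2 and Anp32e). Of genes that had not passed, YFP turned to -0.049 without Anp32e and -0.12 with limma. Nrp1 turned to -0.053 with no filter, -0.064 and -0.085 without Ucn3-Cre replicates 1 and 2 (highest value with 1 library left out 0.0875), -0.0184 with a score of at least 0.2, -0.25 after thinning, -0.18 without nuclei holding inhibitory counts, -0.13 without Sorcs2 and -0.26 against the 4 other sets alone. The 7 members of vGluT2-Cre replicate 2 limit what that library can show.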
